A study of Mus musculus with 4 samples.

Results

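The cytochrome P450 genes of the mouse lung were taken as every row of the expression table whose symbol is Cyp, a family number, a letter and a gene number, which gave 60 of the 17780 genes. Cyp51 and 3 other Cyp symbols (Cyp2ab1, Cyp4a12a and Cyp4a12b) do not have that form and were outside the set. Male C57BL/6J mice, 6 to 7 weeks old at purchase (labelled C57BL/6), received the antiarrhythmic drug amiodarone at 300 mg per kg, the thrombin inhibitor prodrug dabigatran etexilate at 60 mg per kg, both drugs, or the carboxymethylcellulose vehicle by mouth, 5 times per week for 4 weeks. The labels give 28 days of treatment, whereas the study's methods give day 26 for tissue collection. Poly(A)+ RNA of the left lung was sequenced in 1 library per group, 4 libraries in all (vehicle, amiodarone, dabigatran and amiodarone + dabigatran).

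Levels are given in FPKM, a unit that was inferred. FPKM is the number of fragments scaled to the length of the transcript and to the depth of the library. It puts genes of different length on a common scale. Where 4 values are given without names, they are in the order vehicle, amiodarone, dabigatran, amiodarone + dabigatran. Total reads ranged from 17498486 in the vehicle library to 18903401 in the amiodarone + dabigatran library. Because each group is 1 library, there is no replicate spread and no p-value, and a ratio compares libraries rather than treatments. Each ratio of FPKM is followed by an exact 95% Clopper-Pearson interval from the reads of the pair of libraries, which covers counting error only. A gene was called higher or lower when its ratio reached 1.5-fold and its interval lay beyond 1. In whole tissue, fewer cells of a type and less RNA per cell cannot be told apart. The tissue label was borne by lung markers in every library, with surfactant protein C (Sftpc) between 19587 and 20385 FPKM and the club cell secretoglobin Scgb1a1 between 73994 and 124168 FPKM.

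P450 enzymes are haem proteins that insert an oxygen atom into their substrates, with electrons passed on by P450 oxidoreductase in the endoplasmic reticulum or by ferredoxin in mitochondria. Enzymes of the first families act mainly on drugs, toxicants and fatty acids, and their genes are known targets of ligand-activated regulators such as the aryl hydrocarbon receptor (AHR), the pregnane X receptor and the constitutive androstane receptor. In the mouse lung much of this metabolism is known to sit in the club cells of the small airways, where it turns inhaled and blood-borne compounds such as naphthalene into reactive products. In people amiodarone is both a substrate and an inhibitor of P450 enzymes, whereas dabigatran etexilate is activated by esterases.

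Genes of the chromosome 7 cluster and Cyp1b1 carried several of the differences described here, so the 250 bases before their RefSeq start sites are shown in the direction of the gene. The bases are from RefSeq, GRCm38.p6, for Cyp2b10 (chr7:25897408-25897657, plus strand), Cyp2a5 (chr7:26835089-26835338, plus strand), Cyp2f2 (chr7:27119705-27119954, plus strand) and Cyp1b1 (chr17:79715062-79715311, minus strand). Capitals mark matches on either strand to GCGTG, the core of the xenobiotic response element bound by AHR, which reads CACGC when it lies on the strand opposite to the gene. They also mark TATAAA, a common form of the promoter element that places the start of transcription.
Cyp2b10: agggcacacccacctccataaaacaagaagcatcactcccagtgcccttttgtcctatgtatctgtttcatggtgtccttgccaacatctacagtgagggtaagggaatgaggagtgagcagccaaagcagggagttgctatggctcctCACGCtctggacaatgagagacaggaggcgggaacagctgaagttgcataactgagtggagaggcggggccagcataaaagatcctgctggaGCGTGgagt
Cyp2a5: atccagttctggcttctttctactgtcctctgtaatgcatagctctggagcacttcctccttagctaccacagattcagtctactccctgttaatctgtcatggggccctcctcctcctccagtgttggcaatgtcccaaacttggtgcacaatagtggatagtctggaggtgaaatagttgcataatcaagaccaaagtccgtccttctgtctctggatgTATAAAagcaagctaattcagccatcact
Cyp2f2: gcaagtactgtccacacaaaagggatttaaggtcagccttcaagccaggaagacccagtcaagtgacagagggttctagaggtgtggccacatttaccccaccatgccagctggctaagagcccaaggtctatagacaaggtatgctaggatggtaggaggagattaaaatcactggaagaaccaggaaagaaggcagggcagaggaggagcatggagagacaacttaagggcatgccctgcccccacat
Cyp1b1: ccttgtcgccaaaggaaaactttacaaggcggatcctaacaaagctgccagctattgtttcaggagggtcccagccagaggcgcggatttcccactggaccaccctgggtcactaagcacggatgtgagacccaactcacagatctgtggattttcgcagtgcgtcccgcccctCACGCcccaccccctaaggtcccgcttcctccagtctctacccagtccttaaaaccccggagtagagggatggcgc
The Cyp2b10 window held GCGTG at 101 bases before the start on the other strand and at 9 bases before it on the gene's strand. Cyp1b1, a classical AHR target, held 1 match, 76 bases before the start. Cyp2a5 held TATAAA 29 bases before the start, and the Cyp2f2 window held neither. Over windows of 300 bases, with 50 bases after the start included and both strands searched, GCGTG was present in 32.4% of all 32851 RefSeq windows and in 12 of the 49 members with a window (24.5%). TATAAA was present in 13.6% of all windows and in 15 of the 49 members (30.6%). A match is a run of letters in the window and was not tied to binding by any measurement here.

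Of the 60 members, 32 had at least 10 reads in at least 1 library and were given ratios, 23 reached 1 FPKM in all 4 libraries and 3 reached 100 FPKM in all 4. The other 28 members had at most 7.09 estimated reads in any library, the largest value being that of Cyp2j13, whereas the members just inside the limit, Cyp11a1 and Cyp4a32, reached 10 and 11 reads. By role, 25 members were xenobiotic genes of family 2 (11 with ratios), 14 were fatty acid and eicosanoid genes of family 4 (9 with ratios) and 5 were genes of family 3 (1 with ratios). The rest were 3 AHR-inducible genes of family 1 (2 with ratios), 5 sterol and bile acid genes (5), 3 steroid hormone genes (1), 2 vitamin D genes (1), 2 retinoic acid genes (1) and the orphan Cyp20a1 (1).

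Cyp2f2, the club cell enzyme that activates naphthalene, made up most of the P450 message. The FPKM of all 60 members summed to 5010 with vehicle, 3663 under amiodarone, 4718 under dabigatran and 3873 with amiodarone + dabigatran. Cyp2f2 accounted for 80.7%, 69.6%, 79.4% and 73.9% of these sums. Without Cyp2f2 the sums were 966, 1113, 971 and 1012 FPKM, so the order of the libraries in the total was that of Cyp2f2. The other 59 members together were highest with amiodarone, but Cyp2b10 alone made up 194, 340.04, 198 and 264 FPKM of these sums. Most of that excess was therefore Cyp2b10 and not a rise across the 59 members. The plot of levels by gene shows the range of the members.

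**Figure D1:**
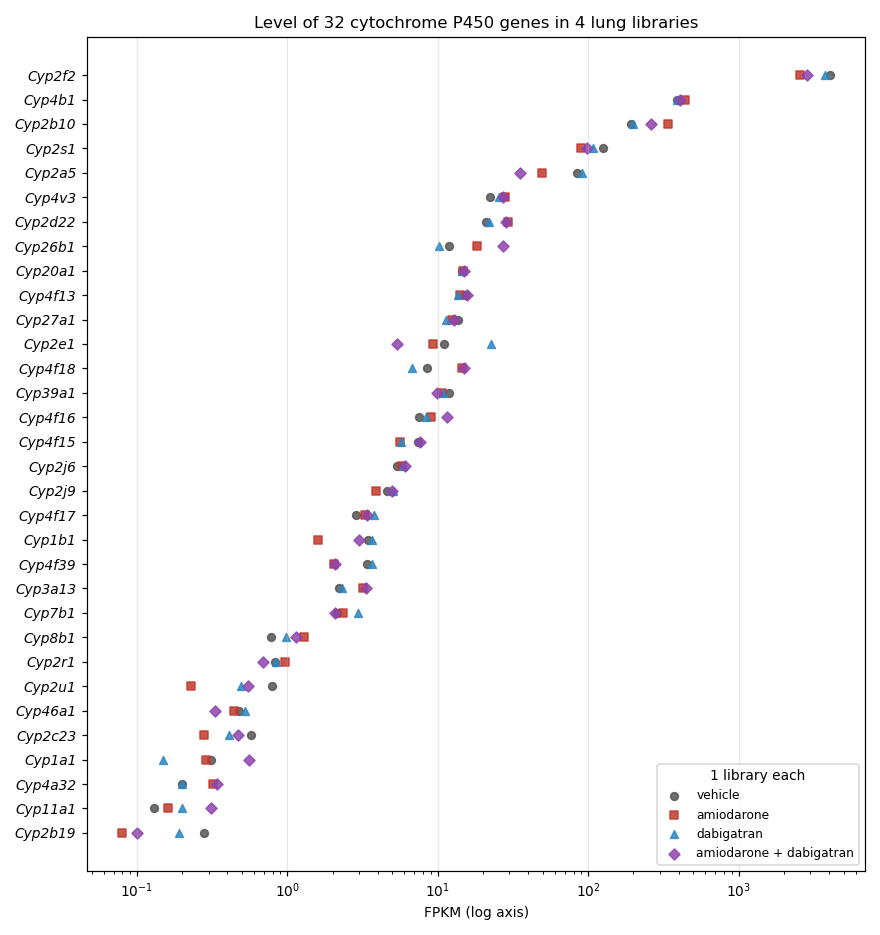
Level in FPKM (log axis) of the 32 P450 genes with at least 10 reads in 1 library, with 1 symbol per library. Cyp2f2 lies between 2549 and 4044 FPKM, Cyp4b1 next at 388 to 442 FPKM, and the lowest genes are under 1 FPKM; the symbols of one gene separate visibly for Cyp2a5, Cyp26b1, Cyp2e1 and Cyp4f18.

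The first question was how the P450 genes differed with amiodarone when dabigatran was absent. Amiodarone against vehicle, 4 of the 32 members were called higher (12.5%, against 5.33% of the 15169 genes with at least 10 reads in a library) and 6 were called lower (18.8%, against 7.5% of those genes). The higher genes were Cyp2b10, Cyp26b1, Cyp4f18 and Cyp8b1, and the lower ones were Cyp2f2, Cyp2a5, Cyp1b1, Cyp4f39, Cyp2u1 and Cyp2b19. The same question in the presence of dabigatran compared amiodarone + dabigatran with dabigatran. There 3 members were called higher (Cyp26b1, Cyp4f18 and Cyp1a1, 9.38% against 4.44% of all genes) and 3 were called lower (Cyp2a5, Cyp2e1 and Cyp4f39, 9.38% against 4.88%). These pairs share no library. Cyp26b1 and Cyp4f18 were called higher in both (50% of the first list and 66.7% of the second), Cyp2a5 and Cyp4f39 were called lower in both (33.3% and 66.7%), and 23 of the 32 ratios lay on the same side of 1. The overlap and the side of 1 were counted over the members only, so no share of all genes stands beside them. The ratios of the set went both ways, 16 above and 16 below 1 without dabigatran and 19 above and 13 below with it. The median log2 difference of FPKM + 1 over the 32 members was 0.001 without and 0.059 with dabigatran, beside -0.044 and -0.014 over all 15169 genes.

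**Figure D2:**
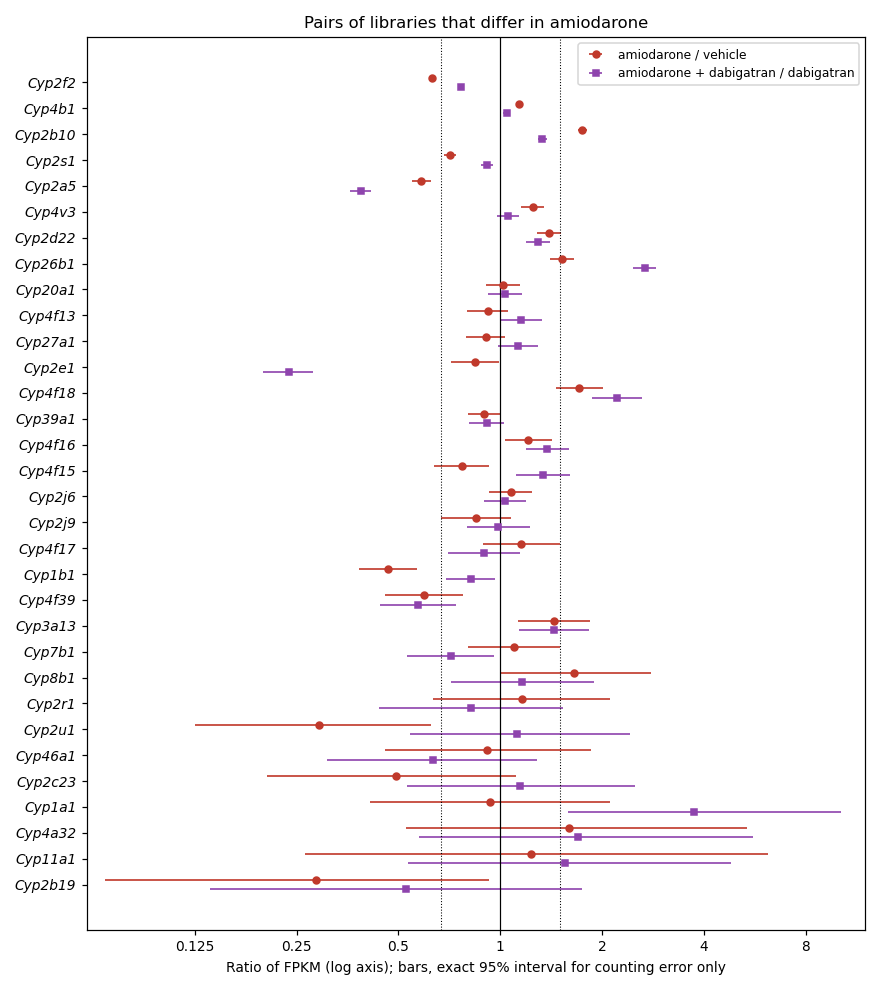
Ratio of FPKM (log axis) of 32 P450 genes for the pairs of libraries that differ in amiodarone, without dabigatran (circles) and with it (squares), with exact 95% intervals for counting error; dotted lines mark 1.5-fold. Cyp26b1 and Cyp4f18 lie right of the dotted line in both pairs, Cyp2a5 and Cyp4f39 left of it in both, and the intervals widen downwards as the reads become few.

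Family 2 held the most abundant member, Cyp2f2, and 11 of the 32 members with ratios. It held 4 of the 6 lower calls for amiodarone without dabigatran and 2 of the 3 with it. Its summed level was 4492 FPKM with vehicle, 3077 under amiodarone, 4199.58 under dabigatran and 3305 with amiodarone + dabigatran. Cyp2f2 (chr7:27119955-27133660) was at 4044, 2549, 3746 and 2861 FPKM in these libraries. Both libraries with amiodarone were thus below both libraries without it. Its ratio was 0.63 (0.625 to 0.636) without dabigatran, a call, and 0.764 (0.757 to 0.77) with dabigatran, which did not reach 1.5-fold.

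Cyp2a5 (chr7:26835339-26843264), the mouse coumarin hydroxylase, was at 84.0 FPKM with vehicle, 49.1 under amiodarone, 90.7 under dabigatran and 35.0 with both. The ratio was 0.585 (0.548 to 0.623) without dabigatran and 0.386 (0.36 to 0.415) with it. The libraries with amiodarone were again the low ones, and the amiodarone + dabigatran library was the lowest. Cyp2a5 shared 37% of its 50-base words with transcripts of other genes, mostly its neighbour Cyp2a4 (28.1%), so part of its reads had to be divided by the authors' counting. Cyp2a4 itself was at 0.09 to 0.16 FPKM.

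Cyp2b10 (chr7:25897658-25926624), the standard reporter of constitutive androstane receptor activity in mouse liver, went the other way. Its level was 194 FPKM with vehicle, 340.04 under amiodarone, 198 under dabigatran and 264 with both. The vehicle and dabigatran libraries were close, with a ratio of 1.02 (0.984 to 1.06), and both libraries with amiodarone were higher. The ratio for amiodarone was 1.75 (1.7 to 1.81) without dabigatran and 1.33 (1.29 to 1.38) with it, the latter under 1.5-fold. Cyp2b10 shared 8.7% of its words with other genes, chiefly Cyp2b13.

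These genes lie in 1 cluster of 12 Cyp2 members on chromosome 7, from 25802469 to 27158564, of which 5 had ratios. Ratios of FPKM within a library do not depend on the scaling between libraries. Cyp2b10 over Cyp2a5 was 2.31 with vehicle and 2.18 with dabigatran, but 6.93 with amiodarone and 7.53 with both drugs. Cyp2b10 over Cyp2f2 was 0.048 and 0.0528 without amiodarone, and 0.133 and 0.0922 with it. Genes of the same cluster therefore differed in opposite directions in the libraries with amiodarone.

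Cyp2s1, an epithelial enzyme at the edge of the cluster, was at 126 FPKM with vehicle, 89.3 under amiodarone, 108 under dabigatran and 98.4 with both. Its ratios of 0.711 (0.683 to 0.74) and 0.915 (0.879 to 0.952) were below 1 beyond counting error but were not calls. Cyp2b19, a gene known from keratinocytes, had only 13, 4, 9 and 5 reads (0.28, 0.08, 0.19 and 0.1 FPKM). Its call with amiodarone rested on these few reads, with a ratio of 0.286 and an interval from 0.0679 to 0.925. The remaining 7 genes of the cluster (Cyp2b13, Cyp2b9, Cyp2a4, Cyp2b23, Cyp2g1, Cyp2a12 and Cyp2t4) stayed at or below 0.19 FPKM.

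**Figure D3:**
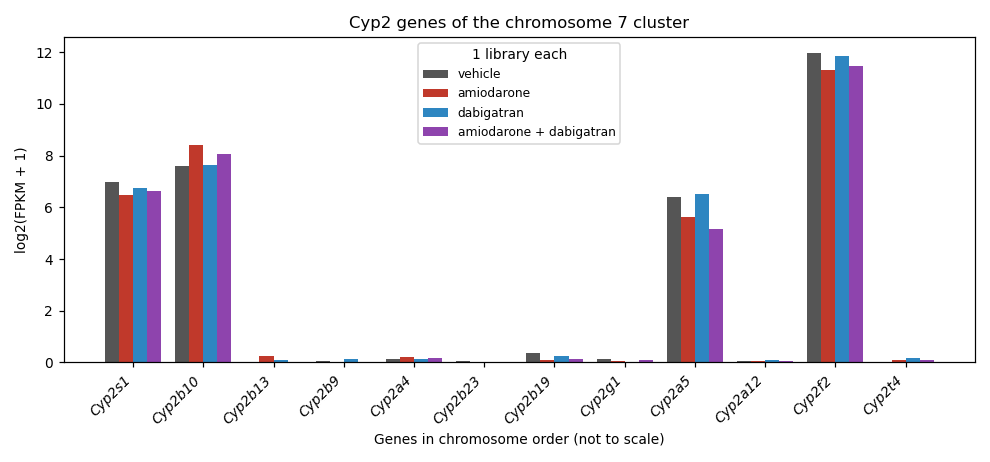
Bars from 0 give log2(FPKM + 1) of the 12 Cyp2 genes of the chromosome 7 cluster in chromosome order, with 1 bar per library. Cyp2s1, Cyp2b10, Cyp2a5 and Cyp2f2 stand far above the rest, with amiodarone the highest bar at Cyp2b10 (340.04 FPKM) and the libraries with amiodarone the lowest bars at Cyp2a5 (49.1 and 35.0 FPKM).

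Markers of the club cell were compared beside these genes. All 8 of the list (Scgb1a1, Scgb3a2, Scgb3a1, Cldn10, Aldh1a1, Muc5b, Retnla and Chad) had reads in every library, and their FPKM summed to 127844 with vehicle, 76361 under amiodarone, 102250 under dabigatran and 100195 with both. Of the 8, 5 were called lower and 0 higher with amiodarone alone, and 2 were called lower when amiodarone + dabigatran was set against dabigatran. Cyp2f2 as a percentage of Scgb1a1 was 3.26% with vehicle, 3.44% under amiodarone, 3.78% under dabigatran and 2.93% with both. Cyp2a5 was 0.0676%, 0.0663%, 0.0916% and 0.0358% of Scgb1a1, and Cyp2b10 was 0.156%, 0.46%, 0.2% and 0.27%. Between vehicle and amiodarone, Cyp2f2 and Cyp2a5 thus differed in nearly the proportion that Scgb1a1 did, whereas Cyp2b10 did not. In amiodarone + dabigatran against dabigatran, Scgb1a1 had a ratio of 0.987 and the summed list 0.98, while Cyp2f2 was at 0.764 and Cyp2a5 at 0.386. Most of the summed list was Scgb1a1 itself (99032 of 102250 FPKM under dabigatran). Of the other markers, Scgb3a2 was at 0.705, Scgb3a1 at 0.836, Aldh1a1 at 0.628, Muc5b at 0.617, Chad at 0.738 and Cldn10 at 1.09. Retnla, at 1.0 and 1.27 in the pairs, was not lower in either. The ciliated cell markers, 5 genes, summed to 627, 421, 560.32 and 479 FPKM, with 2 called lower with amiodarone alone and 0 in the second pair. The alveolar type 2 list had sum ratios of 1.03 and 1.08 for amiodarone without and with dabigatran (1 of 7 called higher, then 0). Most of that sum was Sftpc (20077 of 25680 FPKM with vehicle), with ratios of 0.976 and 1.03. Sftpd was at 1.72 and 1.245, Sftpa1 at 1.36 and 1.14, Sftpb at 1.155 and 1.33, and Napsa at 1.3 and 1.19. Lamp3 was at 1.06 and 1.13, and Abca3 at 0.877 and 0.929. The alveolar type 1 list was at 1.02 and 1.06 (0 of 5 called in both), and the endothelial list at 1.03 and 0.804 (0 of 6 called, then 1 lower). The part of these cells in the P450 differences was not tested.

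**Figure D4:**
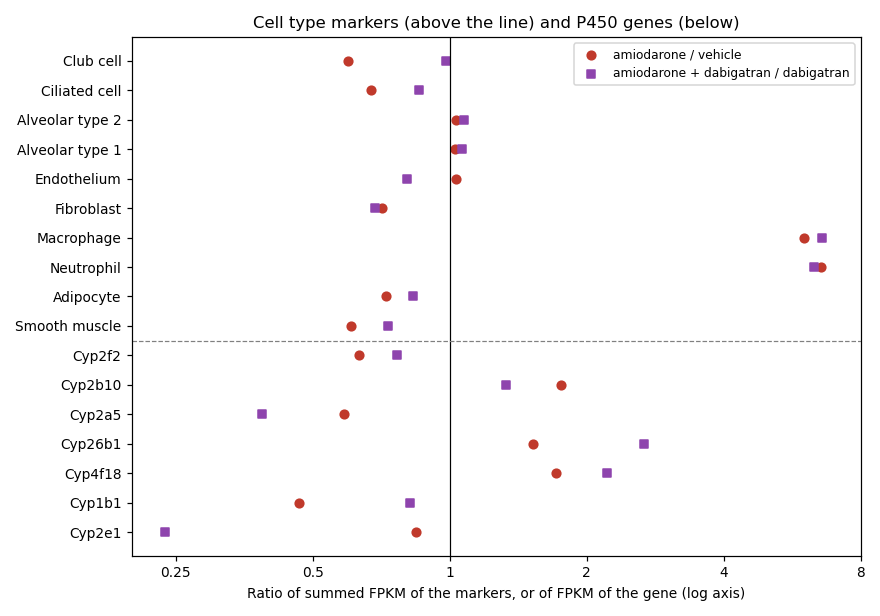
Ratio for amiodarone without dabigatran (circles) and with it (squares), log axis, of the summed FPKM of each marker list (above the dashed line) and of the FPKM of single P450 genes (below). Macrophage and neutrophil lists lie above 6. The club cell list, whose sum is mostly Scgb1a1, lies at 0.597 and 0.98. Cyp2a5 (0.585 and 0.386) and Cyp2b10 (1.75 and 1.33) lie on opposite sides of 1.

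Elsewhere in family 2, Cyp2e1 (chr7:140763819-140774990, outside the cluster), the ethanol-oxidising enzyme of liver and fat, had the widest spread among the 15 most abundant members. It was at 11.0 FPKM with vehicle, 9.25 under amiodarone, 22.6 under dabigatran and 5.34 with both. The dabigatran library was the highest and the library with both drugs the lowest. The ratio for amiodarone was 0.842 (0.717 to 0.99) without dabigatran and 0.237 (0.199 to 0.28) with it. Cyp2d22, a member of the mouse Cyp2d group, was at 20.99, 29.3, 21.8 and 28.2 FPKM, higher in both libraries with amiodarone at 1.39 (1.29 to 1.51) and 1.29 (1.2 to 1.4), under the fold for a call.

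Cyp2u1, an enzyme of long-chain fatty acids, had 26, 10, 13 and 22 reads (0.79, 0.23, 0.49 and 0.55 FPKM). The amiodarone library was the lowest, with a ratio to vehicle of 0.291 (0.125 to 0.624), while amiodarone + dabigatran against dabigatran gave 1.12 (0.541 to 2.43). With so few reads the second interval spans 1.

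In family 1, the AHR-inducible genes, Cyp1b1 (chr17:79706940-79715061), which oxidises oestradiol and polycyclic hydrocarbons, was the most abundant. Its level was 3.45 FPKM with vehicle, 1.61 under amiodarone, 3.67 under dabigatran and 3.0 with both. The amiodarone library stood alone as the low one. The ratio for amiodarone was 0.467 (0.382 to 0.569) without dabigatran, a call, and 0.817 (0.694 to 0.963) with it. Some markers of mesenchymal cells were called lower as well. The 6 fibroblast genes summed to 443, 314, 510.14 and 350 FPKM, with 2 called lower without and 3 called lower with dabigatran, and the 3 smooth muscle genes summed to 385, 234, 364 and 266 FPKM, with 2 called lower without and 0 with dabigatran. The called fibroblast genes were Col3a1 (0.499 and 0.495), Lum (0.488 and 0.378) and, in the second pair only, Col1a2 (0.619). Pdgfra had ratios of 0.931 and 1.03 in these pairs. By qRT-PCR in more mice, the paper reported higher Pdgfra with amiodarone and a smaller rise when dabigatran was added. The ratio of 0.931 here did not show that rise. The part of mesenchymal cells in the Cyp1b1 level was not tested.

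Cyp1a1, the classical induced gene of the AHR, was hardly detected. It had 14, 14, 7 and 27 reads (0.31, 0.29, 0.15 and 0.56 FPKM). Amiodarone + dabigatran against dabigatran gave a ratio of 3.73 with an interval from 1.59 to 10.2, a call that rested on the 7 reads of the dabigatran library, while amiodarone against vehicle gave 0.935 (0.413 to 2.12). Cyp1a2, its hepatic neighbour, had 1 read in the vehicle library and 0 in the others.

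In family 3, which holds the main drug-metabolising P450 genes of liver, only Cyp3a13 had ratios. It was at 2.22 FPKM with vehicle, 3.2 under amiodarone, 2.31 under dabigatran and 3.33 with both. Both libraries with amiodarone were the higher ones by nearly the same ratio, 1.44 (1.13 to 1.84) and 1.44 (1.14 to 1.83), just under the fold for a call. Cyp3a11 had 6 reads with vehicle and 0 elsewhere. Of the 28 members under 10 reads, 6 had reads only in the vehicle library (Cyp1a2, Cyp2d10, Cyp2d9, Cyp3a11, Cyp3a25 and Cyp3a57, 15 reads in all) and 3 only in the amiodarone library (Cyp26c1, Cyp3a59 and Cyp4a31, 7 reads in all). The 5 liver markers (Alb, Apoa1, Apoa2, Ttr and Serpina1a) summed to 3.81 FPKM with vehicle and to 0.53, 0.38 and 0.34 in the others, with albumin at 2.13 against 0.29, 0.14 and 0.16 FPKM and Serpina1a at 0 outside the vehicle library. Whether liver RNA contributed these few reads was not tested.

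Family 4, the fatty acid and eicosanoid hydroxylases, was led by Cyp4b1, a lung enzyme known for activating furans. Cyp4b1 was at 388 FPKM with vehicle, 442 under amiodarone, 391.66 under dabigatran and 409 with both. Its ratios of 1.14 (1.11 to 1.17) and 1.04 (1.02 to 1.07) for amiodarone were beyond counting error but small. The family summed to 455, 519, 459 and 492 FPKM.

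Cyp4f18 (chr8:71988482-72009668), which hydroxylates leukotriene B4 in mouse myeloid cells, was the only member of the family called higher. It was at 8.52 FPKM with vehicle, 14.6 under amiodarone, 6.79 under dabigatran and 15.02 with both. The libraries with amiodarone were both above those without it, with ratios of 1.71 (1.46 to 2.01) and 2.21 (1.87 to 2.62). Myeloid markers were also called higher. The 5 neutrophil genes (S100a8, S100a9, Cxcr2, Csf3r and Retnlg) summed to 89.6, 586, 66.9 and 422 FPKM and all 5 were called higher in both pairs, and the 7 macrophage genes summed to 143, 861, 166 and 1094 FPKM with 6 and 7 called higher. Most of the macrophage sum was Chil3 (90.3, 731, 113 and 940.25 FPKM), with ratios of 8.1 and 8.29. Of the other macrophage genes, Adgre1 was at 1.85 and 1.95, Mrc1 at 1.885 and 2.13, and Siglecf at 1.47 and 2.31. Cd68 was at 2.7 and 3.46, Itgax at 2.58 and 2.54, and Marco at 2.645 and 2.77. The part of these cells in the Cyp4f18 level was not tested.

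Cyp4f39, which makes the very long hydroxylated fatty acids of skin lipids, was the only member of the family called lower. Its levels of 3.41 FPKM with vehicle, 2.03 under amiodarone, 3.64 under dabigatran and 2.08 with both put the libraries with amiodarone below the others. The ratios were 0.595 (0.455 to 0.775) and 0.571 (0.44 to 0.738). Cyp4v3, a fatty acid hydroxylase, was at 22.4, 27.9, 25.6 and 27.0 FPKM. Cyp4f13 was at 15.3, 14.0, 13.6 and 15.7 FPKM, and Cyp4f16 at 7.48, 9.04, 8.3 and 11.4 FPKM. None of these 3 genes was called in any comparison.

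Cyp26b1 (chr6:84571414-84593908), which clears retinoic acid, was called higher in both amiodarone pairs. It was at 11.9 FPKM with vehicle, 18.2 under amiodarone, 10.2 under dabigatran and 27.2 with both. The library with both drugs was the highest. The ratio was 1.52 (1.41 to 1.65) without dabigatran and 2.68 (2.48 to 2.9) with it. Its transcripts shared no 50-base word with another gene.

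Of the 5 sterol and bile acid genes, 1 was called. Cyp27a1, the mitochondrial sterol hydroxylase, was at 13.7, 12.4, 11.3 and 12.8 FPKM. Cyp39a1, an oxysterol hydroxylase, was at 11.9, 10.7, 10.8 and 9.86 FPKM. Cyp8b1, the bile acid hydroxylase of liver, was called higher with amiodarone at 1.65, but with 26, 46, 33 and 41 reads (0.78, 1.29, 0.98 and 1.14 FPKM) and an interval from 1.001 to 2.79 that began at almost exactly 1. Cyp7b1, an oxysterol hydroxylase too, was at 2.13, 2.34, 2.93 and 2.09 FPKM, highest in the dabigatran library. Its ratio was 1.38 (1.02 to 1.86) for dabigatran against vehicle and 0.713 (0.53 to 0.956) for amiodarone + dabigatran against dabigatran, both under the fold for a call. The role group summed to 29, 27.1, 26.6 and 26.2 FPKM.

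The orphan enzyme Cyp20a1 was the steadiest abundant member, at 14.5, 14.8, 14.5 and 14.99 FPKM. Of the vitamin D genes, Cyp2r1, a vitamin D hydroxylase, had 24, 25, 24 and 22 reads (0.83, 0.96, 0.84 and 0.69 FPKM). Of the steroid genes, Cyp11a1, which starts steroid synthesis from cholesterol, had 4, 5, 7 and 10 reads (0.13, 0.16, 0.2 and 0.31 FPKM). Intervals for Cyp2r1 and Cyp11a1 spanned 1 in all 4 comparisons. The adrenal and gonad markers found in the table summed to 1.75, 1.28, 1.81 and 1.48 FPKM, nearly all of it Star, with Nr5a1 at 0.06 FPKM with vehicle and 0 elsewhere. The 7 members with ratios not described singly so far (Cyp2c23, Cyp2j6, Cyp2j9, Cyp4a32, Cyp4f15, Cyp4f17 and Cyp46a1) lay between 0.2 and 7.61 FPKM, and 0 of them were called in any comparison.

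The second question was how the P450 genes differed with dabigatran. Dabigatran against vehicle, 1 member was called higher (Cyp2e1, 3.12% against 1.56% of all genes) and 0 were called lower (against 1.56%). The median log2 difference was 0.021 over the members and 0.000 over all genes. Amiodarone + dabigatran against amiodarone, 2 members were called higher (Cyp1b1 and Cyp2u1, 6.25% against 2.79%) and 1 was called lower (Cyp2e1, 3.12% against 2.27%), with medians of 0.032 and 0.028. These pairs share no library with each other, and 0 members were called in the same direction in both. Of the 32 ratios, 10 lay on the same side of 1. The overlap and the side of 1 were not counted over all genes, so they are not read as a trait of the P450 genes. Each count of called members is of 0 to 2 genes of 32.

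**Figure D5:**
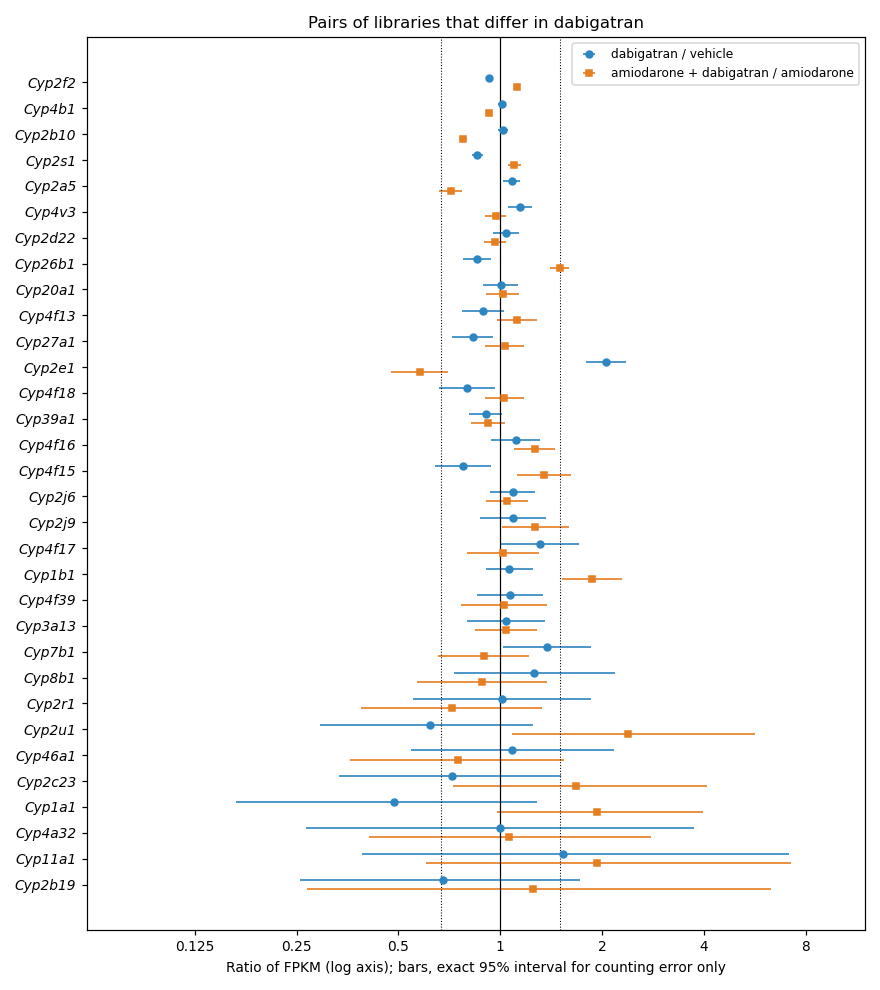
Ratio of FPKM (log axis) of 32 P450 genes for the pairs of libraries that differ in dabigatran, without amiodarone (circles) and with it (squares), with exact 95% intervals for counting error; dotted lines mark 1.5-fold. Cyp2e1 lies at 2.06 without and 0.577 with amiodarone, on opposite sides of 1, and most other abundant genes lie between the dotted lines.

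Cyp2e1 was 2.06-fold (1.8 to 2.35) as high with dabigatran as with vehicle, and 0.577-fold (0.475 to 0.7) as high with both drugs as with amiodarone alone. Of the 6 adipocyte markers, Adipoq was at 4.13, 1.95, 6.85 and 2.61 FPKM and was the 1 marker called higher with dabigatran, at 1.66 (1.26 to 2.2). Fabp4, the most abundant marker of the list, was at 28.8, 24.7, 26.3 and 26.5 FPKM, with a ratio of 0.913 (0.771 to 1.08) for dabigatran. Cidec was at 7.54, 3.5, 8.65 and 6.58 FPKM and was called higher with both drugs against amiodarone, at 1.88 (1.48 to 2.4), the pair in which Cyp2e1 was lower. Plin1 was at 1.93, 0.56, 2.36 and 0.99 FPKM, Lep at or below 0.16 FPKM, and Ucp1 at 0 in 3 libraries. The list summed to 42.6, 30.8, 44.3 and 36.8 FPKM, and Alb was at 0.14 FPKM in the dabigatran library. The part of fat tissue in the Cyp2e1 level was not tested. Cyp1b1 was 1.86-fold (1.52 to 2.29) as high with both drugs as with amiodarone, and Cyp2u1 was 2.39-fold (1.09 to 5.66) as high on 22 against 10 reads. The Cyp2u1 call was lost when read counts per total reads replaced FPKM, at 2.18 (0.99 to 5.16), and dabigatran against vehicle then called it lower, at 0.493 (0.233 to 0.994). Cyp26b1 reached 1.498-fold (1.41 to 1.6) in the same pair, just short of a call.

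The electron donors and accessory proteins of the P450 enzymes showed 0 calls among 9 genes in any of the 4 comparisons. The share of all 15169 genes called was 1.56% to 7.5% per comparison and direction. So 0 calls is not read as a trait of these 9 genes. P450 oxidoreductase (Por) was at 250.31 FPKM with vehicle, 201 under amiodarone, 231 under dabigatran and 222 with both. Its ratios for amiodarone were 0.803 (0.781 to 0.826) without dabigatran and 0.962 (0.936 to 0.989) with it, beyond counting error but under the fold. Cytochrome b5 (Cyb5a) was at 349.5, 296, 321 and 316 FPKM, and its mitochondrial form Cyb5b at 46.6, 40.4, 48.7 and 43.4 FPKM. The b5 reductase Cyb5r3 was at 229, 230.28, 236 and 234 FPKM. Cyb5r1 was at 18.3, 16.5, 20.3 and 20.8 FPKM, with both drugs against amiodarone at 1.26 (1.13 to 1.42), beyond counting error but under the fold. The mitochondrial ferredoxins differed in direction, since Fdx1 was at 28.3, 37.2, 25.1 and 31.4 FPKM and Fdx1l at 20.3, 14.5, 17.04 and 17.4 FPKM. Ferredoxin reductase (Fdxr) was at 4.54, 4.68, 4.93 and 3.92 FPKM. The haem-binding partner Pgrmc1 was at 137, 109.87, 135 and 115 FPKM. Its ratios for amiodarone were 0.803 (0.768 to 0.839) without dabigatran and 0.855 (0.819 to 0.893) with it, also beyond counting error but under the fold. The haem genes Alas1, Hmox1 and Fech also gave 0 calls, summing to 224, 236, 204 and 217.5 FPKM. Most of that sum was Alas1 (177 of 224 FPKM with vehicle). Hmox1 was at 26.7, 37.1, 27.5 and 37.7 FPKM. Its ratios for amiodarone were 1.39 (1.26 to 1.53) without dabigatran and 1.37 (1.25 to 1.51) with it.

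Among 12 receptors and regulators, 10 had ratios and 0 were called, beside 1.56% to 7.5% of all genes per comparison and direction. With so few genes, this count is not read as a trait of the list. The aryl hydrocarbon receptor (Ahr) was at 18.7 FPKM with vehicle, 12.5 under amiodarone, 19.2 under dabigatran and 13.5 with both. Both libraries with amiodarone were low, at ratios of 0.669 (0.622 to 0.719) and 0.705 (0.657 to 0.756), just short of a call in the first pair. Its partner Arnt was at 19.3, 19.6, 18.4 and 18.4 FPKM. The drug receptors of liver were scarce, with the pregnane X receptor (Nr1i2) at 1.08, 0.72, 1.06 and 0.67 FPKM and the constitutive androstane receptor (Nr1i3) at 0.07, 0, 0 and 0.03 FPKM. The AHR repressor (Ahrr) was at 0.04, 0.05, 0 and 0.06 FPKM. Of the fatty acid and sterol receptors, Ppara was at 1.18, 1.43, 1.21 and 1.42 FPKM, Pparg at 7.1, 7.62, 7.3 and 10.3 FPKM, and Nr1h3 at 24.9, 30.9, 23.5 and 35.1 FPKM. Nr1h3 in the second amiodarone pair, at 1.49 (1.36 to 1.64), came closest to a higher call. The shared partner Rxra was at 29.1, 31.9, 29.6 and 31.3 FPKM, the vitamin D receptor (Vdr) at 3.3, 2.61, 2.65 and 2.84 FPKM, the glucocorticoid receptor (Nr3c1) at 28.8, 26.4, 30.23 and 23.9 FPKM, and the oxidant sensor Nfe2l2 at 77.4, 96.7, 82.5 and 82.5 FPKM.

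Other AHR targets did not move together. Tiparp was at 7.59, 12.4, 8.59 and 10.7 FPKM and was called higher with amiodarone alone, at 1.64 (1.47 to 1.82). Nqo1 was at 6.72, 3.28, 7.04 and 3.56 FPKM and was called lower in both amiodarone pairs, at 0.488 (0.375 to 0.632) and 0.506 (0.393 to 0.648). Aldh3a1 was at 30.3, 16.98, 29.3 and 20.4 FPKM and was called lower with amiodarone alone, at 0.56 (0.5 to 0.626). Of the P450 enzymes outside the naming pattern, the sterol demethylase Cyp51 was at 9.25, 6.95, 9.75 and 6.4 FPKM and was called lower in amiodarone + dabigatran against dabigatran, at 0.656 (0.586 to 0.735). Thromboxane synthase (Tbxas1), an enzyme of platelets and macrophages, was at 3.52, 4.25, 3.55 and 5.52 FPKM and was called higher in that pair, at 1.55 (1.23 to 1.97). Prostacyclin synthase (Ptgis) was at 60.1, 54.2, 63.0 and 65.5 FPKM and was not called.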

How the data were processed

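Left lung poly(A)+ RNA, 1 sample per group, was sequenced on the DNBseq platform. Per the study's methods and the submitters' processing notes, the authors mapped clean reads to GRCm38.p6 with HISAT 2.0.4 and Bowtie2 2.2.5 and quantified genes with RSEM 1.2.8. The deposited table gives for each library an estimated count of reads and a normalized value. The unit of the deposited normalized value is not given in the sources used here and was inferred to be FPKM, because reads per unit differed between amiodarone and vehicle by a factor of 1.07, the ratio of their total reads. That factor shows scaling to depth and does not by itself tell FPKM from another unit scaled to length and depth. Another 8 columns, means over 2 libraries, were not used.

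Libraries were grouped by their treatment labels. Ratios of FPKM were computed for genes with at least 10 reads in 1 library, with exact 95% Clopper-Pearson intervals from estimated counts rounded to whole reads (Python 3.11.15, scipy 1.17.1). Sequenced fragments are not independent molecules, so intervals cover counting error only, and a count of 0 allows up to 3 reads. Calls needed 1.5-fold and an interval beyond 1, and 4 comparisons were made. The procedure was tested on simulated counts that held counting error and no spread between animals, so that check says nothing about differences between animals. Gene lists were redox partners, receptors, other AHR targets, haem genes, P450 enzymes outside the pattern, and markers of club, ciliated, alveolar type 1 and type 2, endothelial, fibroblast, macrophage, neutrophil, adipocyte, liver, adrenal and smooth muscle cells. Fdx2 and Hsd3b1 were not found in the table by symbol. Genes named singly were the 15 members with the highest mean level, every called member, the most abundant member of each role, Cyp1a1, Cyp1a2, Cyp1b1, Cyp3a11, Cyp3a13 and the redox, receptor and other P450 lists; Cyp7b1 and Cyp4f15 were named after their values were seen, and the rest were given by range and count. Members and lists were chosen with earlier results of these data known. All 60 members matched RefSeq, which gave coordinates on GRCm38.p6, and 49 of them had a promoter window. Sequence shared between genes was counted as 50-base words in GENCODE M21 transcripts. Alternatives were a 2-fold limit, no condition on the interval, rescaling by the median ratio over 12728 genes, read counts per total reads, limits of 50 reads or none, a pseudocount of 0.1 in place of 1 for log2 medians, a mean of at least 1 FPKM, and leaving out close copies.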

Additional observations from a re-analysis of the deposited data

Results flagged for a closer look

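Of the 32 genes with ratios, 6 had ratios on opposite sides of 1, each beyond counting error, in the pairs of libraries that ask the same question with and without the other drug. Such reversals were not counted over all genes, so their number is not read as a trait of the P450 genes. Cyp4f15, a leukotriene and fatty acid hydroxylase of family 4, had such ratios for both drugs, which draw on the same 4 values. It was at 7.34 FPKM with vehicle, 5.64 under amiodarone, 5.69 under dabigatran and 7.61 with both, so each single drug library was below the vehicle and combination libraries. Its ratio for amiodarone was 0.768 without and 1.34 with dabigatran, and for dabigatran it was 0.775 without and 1.35 with amiodarone. For dabigatran, the ratio without and then with amiodarone was 2.06 and 0.577 for Cyp2e1, 1.08 and 0.714 for Cyp2a5, 0.853 and 1.498 for Cyp26b1, 0.926 and 1.12 for Cyp2f2, and 0.856 and 1.1 for Cyp2s1. Of these, only Cyp2e1 reached 1.5-fold on both sides. With 1 library per group the differences between the pairs were not tested.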

How the results depend on the processing

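The share of all genes called was computed for the main rule only, so the member counts under other settings have no such share beside them. With a 2-fold limit, the members called with amiodarone against vehicle were 0 higher and 3 lower, and those with amiodarone + dabigatran against amiodarone were 1 higher and 0 lower. Without the condition on the interval, amiodarone + dabigatran against dabigatran gave 5 higher and 5 lower, dabigatran against vehicle 2 higher and 2 lower, and amiodarone + dabigatran against amiodarone 5 higher. With read counts per total reads, dabigatran against vehicle gave 1 lower and amiodarone + dabigatran against amiodarone 1 higher, and both changes were in Cyp2u1. A limit of 50 reads gave 1 higher in the latter pair, and no limit gave 1 lower in dabigatran against vehicle and 2 lower in amiodarone + dabigatran against amiodarone. Median-ratio rescaling and leaving out close copies, the latter chosen after seeing the data, kept all 8 counts within 1.5 times, and the medians moved little under a pseudocount of 0.1, the rescaling and the filter of 1 FPKM. Rescaling moved the amiodarone against vehicle ratio of Cyp2b10 to 1.81 and of Cyp2f2 to 0.652, both still called. The planned leaving out of members by protein identity was not run, since no protein table was used here. No paired analysis was possible because each group is 1 library and the result comes from no test. Calls of Cyp1a1, Cyp2b19, Cyp2u1 and Cyp8b1 rest on fewer than 50 reads in every library, and no value here carries the spread between animals.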
